A study of Mus musculus with 18 samples.

Results

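The caspases and the Bcl2 family are the core proteins of apoptosis, and their transcripts were measured here in the kidney cortex of 5 mouse strains given an antibody against the glomerular basement membrane (anti-GBM). The members were chosen by gene symbol. They were the genes whose symbol starts with Casp and a digit, with Bcl2, or with Birc and a digit, together with Bax, Bak1, Bid, Bad, Bok, Bik, Mcl1, Apaf1, Cflar, Fadd, Diablo, Aifm1, Cycs, Fas and Trp53. Endog was also looked for and had no probe on the array. The rule found 45 of 34509 gene symbols, with 84 of the 46643 probes measured in B6 and NZW mice. In BALB/C, DBA1 and 129/svj mice, measured in a separate table, it found 42 of 46147 rows, from 28 genes.

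The study asked which kidney transcripts differ between strains that resist anti-GBM nephritis and strains that are sensitive to it. B6 and BALB/C were labelled resistant, and DBA1, 129/svj and NZW sensitive. All mice were 2 months old and all had received the antibody, so a strain difference here can have been present before the challenge or have come with it, and these cannot be told apart. RNA was measured on 18 Illumina Mouse WG-6 v1 BeadChip arrays, which were read as coming from 15 mice, 3 of each strain. In BALB/C, DBA1 and 129/svj the sample titles ran 1 number higher than in B6 and NZW. The array with that highest number was treated as a second, repeat array of mouse 1 and averaged with the first. The titles themselves do not name a repeat, and the count of 3 mice in these strains depends on this reading. Mice are numbered 1 to 3 within a strain on that reading. No transgene or engineered allele was named, and the labels did not say whether mice shared a litter or a day of handling. B6 and NZW were compared with each other, and BALB/C, DBA1 and 129/svj with each other, because a level in the first table cannot be set against a level in the second.

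In apoptosis, the death receptor route runs from Fas through the adaptor Fadd to the initiator Casp8, with Cflar as its inhibitor. The mitochondrial route is held in check by anti-apoptotic proteins such as Bcl2, Bcl2l1 and Mcl1. These are opposed by small proteins that carry only a BH3 domain, such as Bik, Bid and Bad, and by Bax and Bak1, which open the outer mitochondrial membrane. Released cytochrome c, the product of Cycs, joins Apaf1 to form the apoptosome, which activates the initiator Casp9, and Casp9 in turn activates executioner caspases. The inhibitor of apoptosis proteins, encoded by the Birc genes, bind caspases or their partners, and Diablo relieves that block. Casp1 belongs to the inflammatory caspases, which process interleukin precursors. In kidney, death of tubular and glomerular cells accompanies antibody-mediated injury.

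The promoters of 3 members that the results turn on are shown because these genes differed between strains in only some of the comparisons. Each is the 250 bases before the gene start, from RefSeq, build GRCm38.p6, on the plus strand and 5′ to 3′. RefSeq entries matched 42 of the 45 member symbols, and 38 symbols had a promoter, with 45 promoters in all. No promoter was found for Bik. Casp9 lies at chr4:141793362-141793611, and capitals mark GC boxes, GGGCGG on either strand. Casp1 lies at chr9:5298267-5298516 and Bcl2a1b at chr9:89199023-89199272, and in both of these capitals mark the ETS core, GAGGAA on either strand.
Casp9: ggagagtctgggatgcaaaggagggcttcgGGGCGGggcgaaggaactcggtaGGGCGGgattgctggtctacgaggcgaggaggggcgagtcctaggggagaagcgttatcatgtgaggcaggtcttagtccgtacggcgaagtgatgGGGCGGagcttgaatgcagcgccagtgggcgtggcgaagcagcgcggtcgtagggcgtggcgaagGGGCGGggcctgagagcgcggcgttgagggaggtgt
Casp1: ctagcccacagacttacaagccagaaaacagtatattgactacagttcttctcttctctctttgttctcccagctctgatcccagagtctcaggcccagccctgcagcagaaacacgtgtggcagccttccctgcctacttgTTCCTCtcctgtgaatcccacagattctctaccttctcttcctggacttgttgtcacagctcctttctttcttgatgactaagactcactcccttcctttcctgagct
Bcl2a1b: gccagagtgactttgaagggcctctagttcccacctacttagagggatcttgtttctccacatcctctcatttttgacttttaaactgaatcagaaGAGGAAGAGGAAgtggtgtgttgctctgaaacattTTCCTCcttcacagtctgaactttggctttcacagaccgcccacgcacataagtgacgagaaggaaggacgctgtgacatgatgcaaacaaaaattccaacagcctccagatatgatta

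The Casp9 promoter held 4 GC boxes and no match to the other 5 motifs searched on both strands. Those were the TATA box TATAAA, the CCAAT box CCAAT, the AP-1 site TGANTCA, the STAT site TTCNNNGAA and the ETS core. A GC box was found in 32.7% of all 32851 promoters of this length and in 24 of the 45 member promoters. The Casp1 promoter held 1 ETS core and no other searched motif. The Bcl2a1b promoter held 3 ETS cores, 1 AP-1 site and 1 GC box. The ETS core was found in 23.3% of all promoters and in 12 of the 45 member promoters, and the AP-1 site in 6.75% of all promoters. A match describes the letters only.

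Values below are log2 normalized intensities, and a probe was tested where its detection p was 0.05 or less in at least 3 mice of its table. This kept 43 of the 84 member probes (51.2%, against 35.9% of all probes) for B6 and NZW, from 31 genes. It kept 18 of the 42 rows (42.9%, against 34.3% of all) for BALB/C, DBA1 and 129/svj, from 15 genes. In B6 and NZW, 14 member genes had no tested probe, which were Bcl2a1c, Bcl2l10, Bcl2l11, Bcl2l14, Birc1f, Birc2, Birc3, Birc4, Birc7, Casp12, Casp14, Casp4, Casp8ap2 and Cflar. In the other strains 13 had none, which were Bak1, Bcl2a1a, Bcl2a1c, Bcl2l11, Bcl2l14, Birc1f, Birc5, Birc7, Bok, Casp12, Casp2, Cflar and Trp53. A further 17 genes had no row in that table and were read in B6 and NZW only. These included Bax, Bcl2, Mcl1, Fas, Fadd, Bad, Bid and Casp6.

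Median deposited signal per array was 81.1 to 89.8 for B6 and NZW and 118.0 to 152.0 for the other strains, and 30.5% to 36.4% of probes were detected. Each tested member value rested on 15 to 70 beads. The samples read as kidney, since all 15 proximal tubule marker genes were tested in B6 and NZW, and all 12 with a row in the other table. All 13 distal nephron and collecting duct marker genes were tested in B6 and NZW too, so these genes do not test the cortex label. The cortex samples also held leukocyte transcripts. The summed normalized signal of the tested macrophage markers was 7820 to 11754 in B6 and 5083 to 6233 in NZW. In the other table it was 392 to 689 in BALB/C, 1150 to 2231 in DBA1 and 457 to 1979 in 129/svj. Mouse 3 of 129/svj stood apart from the other 129/svj mice. Its macrophage sum was 1979 against 665 and 457, and its cell cycle sum was 722 against 224 and 206.

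The largest strain differences among the members were in a Casp9 row and in Bik, and both separated BALB/C from the sensitive strains measured beside it. That Casp9 row was not above background in any BALB/C mouse. It was readily detected in all 6 DBA1 and 129/svj mice, and was tested only because it was high there. A further Casp9 row, detected in every mouse of these strains, was not lower in BALB/C (differences of 0.53 and 0.34, neither called). Bik was 4.58-fold higher in BALB/C than in DBA1 and 4.33-fold higher than in 129/svj, and its signal in both sensitive strains was detected but dim. Neither gene was called between B6 and NZW. There, Casp1 and both Bcl2a1b probes were about equally higher in B6, by 1.81- to 1.85-fold.

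In BALB/C against DBA1, 2 of the 18 tested member rows passed limma's adjusted p of 0.05, 1 higher and 1 lower in BALB/C, the lower being a Casp9 row below background there. Of all 15818 rows tested, 5.75% passed, 2.86% higher and 2.89% lower. In BALB/C against 129/svj, 3 of 18 passed, 2 higher and 1 lower, where 4.82% of all rows did, 2.47% higher and 2.36% lower. In DBA1 against 129/svj, limma called 0 of 18 with 1 at an unadjusted p under 0.05, where 4.48% of all rows were called, 2.17% higher and 2.31% lower in DBA1. The median member difference was close to that of all rows in each, at 0.00, -0.05 and -0.02 against 0.01, 0.01 and 0.00. The first and second of these comparisons share the BALB/C mice.

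Casp9, the initiator that the apoptosome activates, gave log2 values of 4.96, 4.87 and 4.82 in BALB/C mice 1 to 3. It gave 8.90, 8.74 and 8.72 in DBA1, and 8.79, 8.74 and 8.81 in 129/svj. The BALB/C mice lay far below every other mouse, and none of them was above background, with deposited signals of 115 to 134 against 497 to 650 in the other mice. The BALB/C level is therefore only a bound, taken from the lowest signal among detected probes on each array, and against it Casp9 was at least 8.6-fold lower than in DBA1 (adjusted p of the fit 5.3e-08, limma) and at least 8.56-fold lower than in 129/svj (7.2e-08). DBA1 and 129/svj differed by 0.01 (adjusted p = 0.99). The row passed the filter through the DBA1 and 129/svj mice alone, so that it was tested only because it was high there, and its call and adjusted p are given as a description.

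That Casp9 row carries a transcript key shared by 3 probes in the table of B6 and NZW, and it could not be tied to any single one of them. Of those 3 probes, 1 was detected in all 6 mice, with deposited signals of 436 to 590, and the others were not detected in any, at 52.9 to 77.7. The detected probe read 8.88, 8.76 and 8.73 in B6 and 8.76, 8.93 and 8.91 in NZW. These strains overlapped, with a difference of -0.08 (SE 0.11, adjusted p = 0.65). A further Casp9 row with another key was measured in BALB/C, at 7.01, 6.67 and 6.42, in DBA1, at 5.89, 6.42 and 6.21, and in 129/svj, at 6.70, 6.32 and 6.05. It was not lower in BALB/C. Its differences were 0.53 (95% interval 0.04 to 1.02, adjusted p = 0.23) and 0.34 (-0.15 to 0.83, adjusted p = 0.54). The Casp9 rows therefore disagreed, and probe sequences were not used here to tell which transcripts or strain alleles each one reads.

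Bik, a BH3-only protein that opposes the anti-apoptotic members, read 8.37, 8.11 and 8.12 in BALB/C. It read 6.15, 5.84 and 6.03 in DBA1 and 6.01, 6.26 and 5.98 in 129/svj. Every BALB/C mouse lay above every DBA1 and 129/svj mouse, and the latter strains overlapped. The difference was 2.19 (SE 0.15, adjusted p = 1.5e-05) against DBA1 and 2.12 (SE 0.15, adjusted p = 1.5e-05) against 129/svj. DBA1 and 129/svj differed by -0.08 (95% interval -0.41 to 0.25, adjusted p = 0.9). Deposited signals before normalization were 389 to 450 in BALB/C and 157 to 187 in the others, beside array medians of 118.0 to 152.0. The size of the difference therefore depended on the processing. It went down to 1.21 against DBA1 and 1.18 against 129/svj under alternatives, where it was still called.

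**Figure D1:**
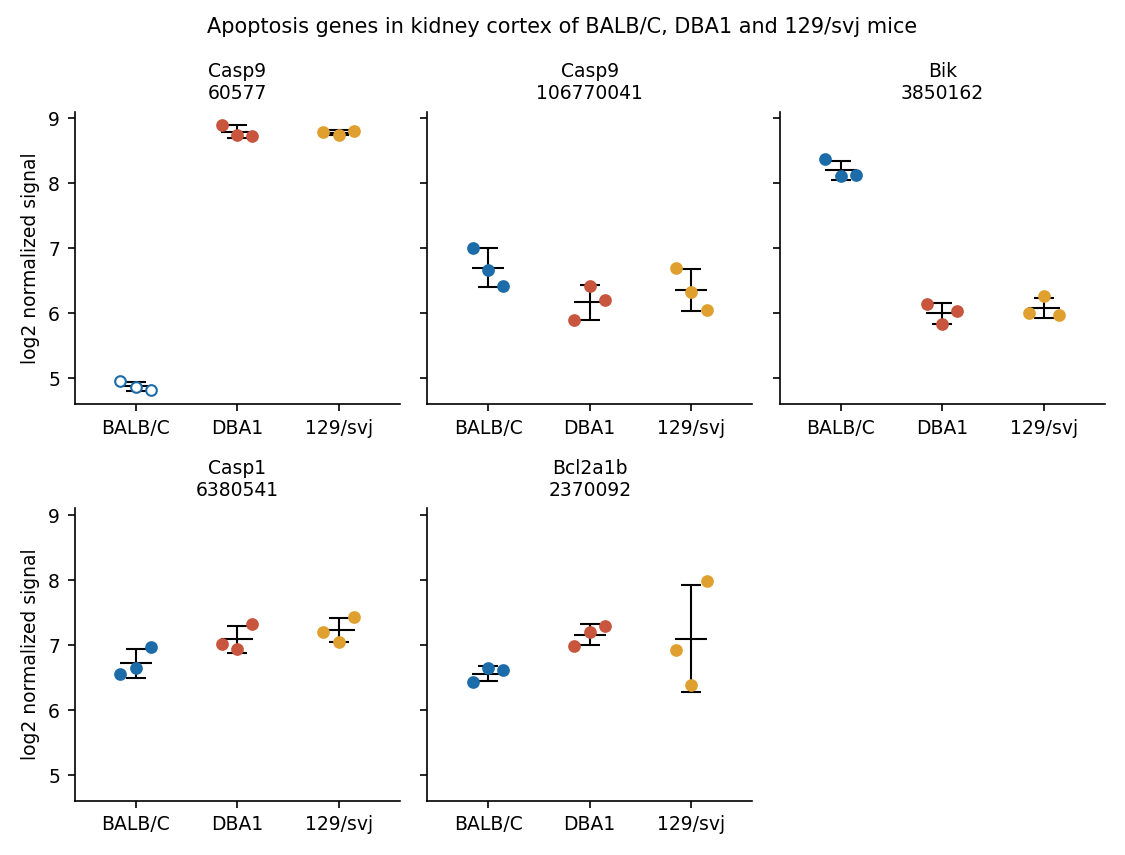
Log2 normalized intensity of 5 member rows in each BALB/C, DBA1 and 129/svj mouse, with points for mice (n = 3 per strain), bars for the mean and SD, and open points where a row was not detected in any mouse of that strain. BALB/C is lowest for the Casp9 row at the left, at 4.82 to 4.96, and highest for Bik, at 8.11 to 8.37.

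The other members described here were not called between these strains. Casp8, the initiator of the death receptor route, read 9.0, 9.09 and 9.29 in BALB/C, 9.02, 9.16 and 8.84 in DBA1, and 9.04, 8.96 and 9.57 in 129/svj. The strains overlapped, with differences of 0.12 (adjusted p = 0.8) and -0.06 (adjusted p = 0.93). Casp1 read 6.55, 6.65 and 6.97 in BALB/C, 7.01, 6.94 and 7.33 in DBA1, and 7.20, 7.05 and 7.43 in 129/svj. BALB/C lay below the others on average, by -0.37 (SE 0.17, adjusted p = 0.3) and -0.50 (SE 0.17, adjusted p = 0.18), and neither passed the test.

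Bcl2a1b, an anti-apoptotic protein mostly made by blood cells, read 6.43, 6.64 and 6.61 in BALB/C, 6.98, 7.20 and 7.30 in DBA1, and 6.92, 6.39 and 7.99 in 129/svj. The DBA1 mice were above the BALB/C mice, and the 129/svj mice spread around both. The differences were -0.60 (adjusted p = 0.38) and -0.54 (adjusted p = 0.51). The highest 129/svj value was that of mouse 3, which also had the highest macrophage sum of its strain. Of 5 tested macrophage markers, Cd14 was called, lower in BALB/C than in DBA1 (-2.79, adjusted p = 0.014), and Fcer1g and Lyzs were not tested. The part of these cells in the Bcl2a1b values was not tested. The tested Bcl2l1 row, for another anti-apoptotic protein, read 5.66, 5.18 and 5.97 in BALB/C, 5.77, 5.31 and 6.31 in DBA1, and 5.46, 5.12 and 6.75 in 129/svj. All strains overlapped, with differences of -0.19 (adjusted p = 0.86) and -0.18 (adjusted p = 0.9). The row was above background in only 1 BALB/C, 2 DBA1 and 1 129/svj mice, so it cannot show whether Bcl2l1 differed. Apaf1, the scaffold of the apoptosome, differed by -0.28 (adjusted p = 0.52) and 0.07 (adjusted p = 0.92). The remaining rows, of Bcl2l2, Bcl2l13, Birc1cl, Birc2, Birc6, Cycs, Diablo and the second Bcl2a1b probe, were not called in any of these comparisons.

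**Figure D2:**
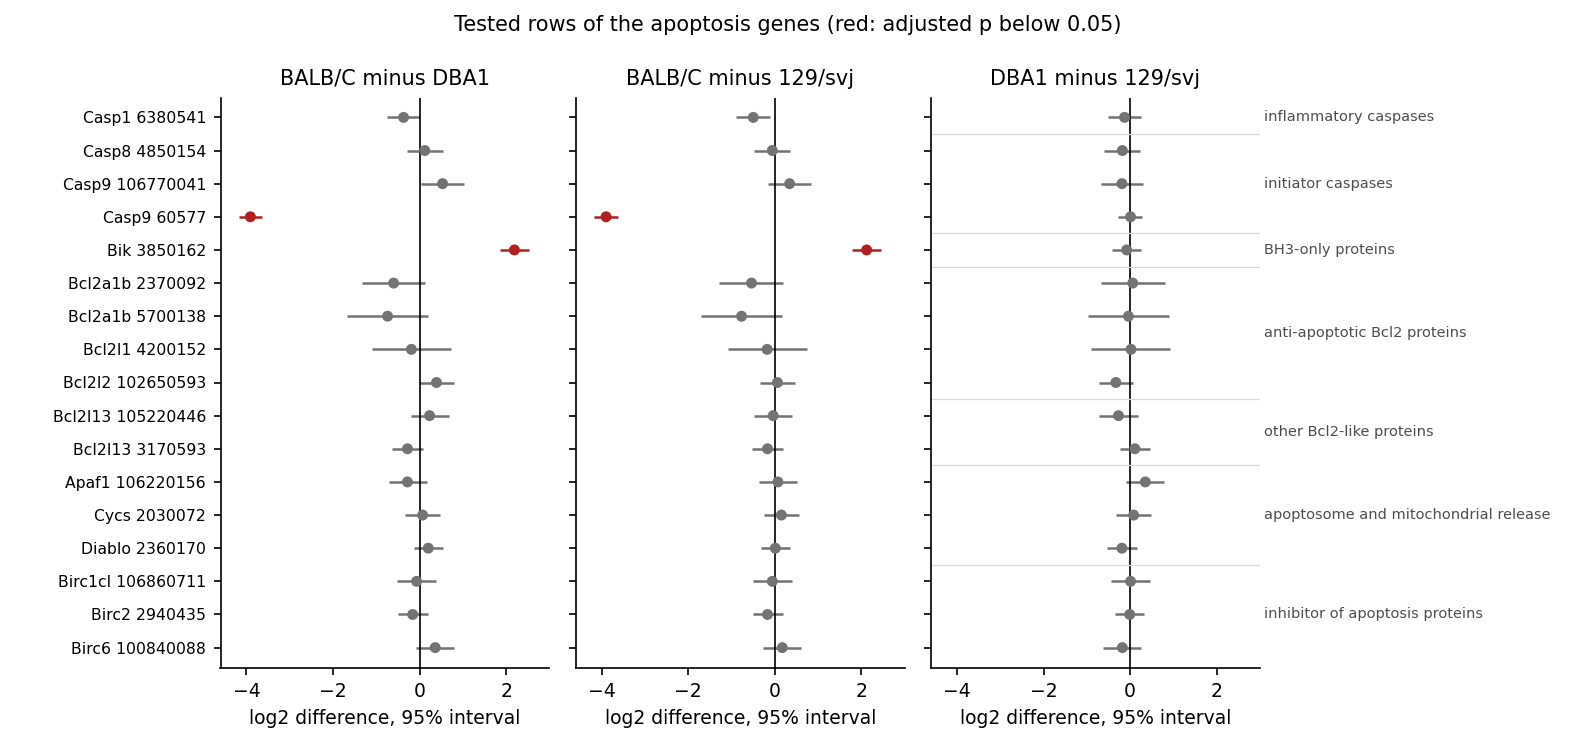
Log2 difference with its 95% interval for 17 of the 18 tested member rows in BALB/C minus DBA1, BALB/C minus 129/svj and DBA1 minus 129/svj, with red for an adjusted p below 0.05. Bik, at 2.19 and 2.12, lies far to the right, and Casp9, drawn at its fitted value although BALB/C was below background, lies far to the left, and no row is red in DBA1 minus 129/svj.

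In B6 against NZW, 6 of the 43 tested member probes were called, 5 higher and 1 lower in B6. Of all 16766 probes tested, 18.8% were called, 9.24% higher and 9.60% lower in B6. The member share of 14.0% was thus below the background share. The median member difference was -0.07, against -0.04 for all probes.

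Among the caspases, Casp1 was higher in B6, at 7.71, 8.0 and 7.70 against 6.95, 6.71 and 7.17 in NZW. The groups did not overlap, and the difference was 0.86 (SE 0.15, 1.81-fold, adjusted p = 0.0045). It was the only tested probe of the inflammatory caspases, since Casp4 and Casp12 were not detected. None of 5 initiator probes was called by limma, and none had an unadjusted p under 0.05, with differences from -0.11 to 0.19. Casp8 read 9.61, 9.62 and 9.43 in B6 and 9.60, 9.78 and 9.61 in NZW, a difference of -0.11 (95% interval -0.37 to 0.14, adjusted p = 0.53).

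Casp6, an executioner, averaged 10.16 in both strains and was not called (adjusted p = 1).

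Of 12 anti-apoptotic Bcl2 probes, 2 were higher and 1 was lower in B6, which is 25.0% called against 18.8% of all probes. The higher probes were both of Bcl2a1b. The probe with the larger difference read 7.99, 8.14 and 7.94 in B6 and 7.34, 6.80 and 7.28 in NZW, a difference of 0.88 (SE 0.16, 1.85-fold, adjusted p = 0.0048). The brighter one read 8.47, 8.77 and 8.64 against 7.92, 7.61 and 7.77, a difference of 0.86 (SE 0.13, 1.81-fold, adjusted p = 0.0019). Neither probe overlapped between the strains. The probe of Bcl2a1a ran the other way on average, at -0.45 (SE 0.16), but was not called (adjusted p = 0.095). These genes are near-identical copies, so which copy each probe read is uncertain.

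Bcl2a1b and Casp1 are also made by leukocytes, so leukocyte markers are given beside them. The macrophage sum was higher in each B6 mouse than in any NZW mouse. Of 15 macrophage probes, from 13 of 15 marker genes, 2 were called, which is 13.3% against 18.8% of all probes. They were Fcer1g (5.44) and C1qb (1.02), both higher in B6 and both part of the sum. The median difference of the 15 probes was 0.46. Itgam and Lyz were not tested. The neutrophil sum, over 9 probes with 0 called by limma and 0 at an unadjusted p under 0.05, was 1571 to 8074 in B6 and 2818 to 3867 in NZW, and the lymphocyte sum, over 9 probes with 0 called and 3 at an unadjusted p under 0.05, was 1423 to 1660 against 1182 to 1483. Kidney markers are given too. Of 13 tubular injury probes 6 were called (46.2%), 3 higher in B6, among them Timp1 (1.86) and Lcn2 (1.80), and 3 lower, among them Havcr1 (-2.77). The injury sum was 20856, 21616 and 11831 in B6 mice 1 to 3 and 11362 to 13239 in NZW, so that B6 mouse 3 stood apart from the other B6 mice. Of 22 proximal tubule probes 8 were called (36.4%), 7 of them lower in B6, and the sum was 142059 to 156544 in B6 and 169891 to 177832 in NZW. Without B6 mouse 3, 6 member probes were called. The part of these markers in the member differences was not tested, and in bulk tissue fewer cells of a type and less RNA per cell cannot be told apart.

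Bcl2l2, which protects cells much as Bcl2 does, had 3 tested probes, of which 1 was called. The called probe read 6.67, 6.89 and 7.23 in B6 and 7.84, 7.36 and 7.51 in NZW, which did not overlap. It was 1.56-fold higher in NZW, a difference of -0.64 (SE 0.18, adjusted p = 0.037). Another differed the same way, by -0.31 (adjusted p = 0.32), but was detected in only 1 B6 and 2 NZW mice. The last, detected in all 6 mice, differed the other way, by 0.18 (adjusted p = 0.24). The call was lost without NZW mouse 1 or 3 (-0.50, adjusted p = 0.1, and -0.67, 0.08) and without B6 mouse 1 or 2 (-0.51, adjusted p = 0.12, and -0.62, 0.11).

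The best known anti-apoptotic members were not called. Bcl2 read 7.75, 8.01 and 7.70 in B6 and 7.39, 7.52 and 7.72 in NZW, a difference of 0.27 (95% interval -0.03 to 0.58, adjusted p = 0.19). Mcl1 read 11.27, 11.33 and 11.36 against 11.44, 11.46 and 11.34, a difference of -0.09 (-0.32 to 0.13, adjusted p = 0.56). Both overlapped between strains. The brightest Bcl2l1 probe read 7.17, 7.35 and 7.25 in B6 and 7.52, 7.65 and 7.49 in NZW. Its groups did not overlap, but the difference of -0.30 (-0.54 to -0.05) missed the threshold (adjusted p = 0.091), as did those of the other Bcl2l1 probes, at -0.60 (adjusted p = 0.053) and -0.49 (adjusted p = 0.14).

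Among the proteins that promote release from mitochondria, none of 3 pore-forming and 3 BH3-only probes was called, and 1 of them, a BH3-only probe, had an unadjusted p under 0.05. Bax read 7.64, 7.57 and 7.69 in B6 and 7.26, 7.74 and 7.60 in NZW, with overlap and a difference of 0.10 (95% interval -0.22 to 0.41, adjusted p = 0.67). Bik read 8.85, 8.97 and 9.19 in B6 and 9.17, 9.43 and 9.11 in NZW, with overlap and a difference of -0.23 (-0.54 to 0.08, adjusted p = 0.28). Bid differed by -0.30 (adjusted p = 0.13) and Bad by -0.11 (adjusted p = 0.54).

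Apaf1 was the only one of 4 apoptosome and mitochondrial release probes called, which is 25.0% against 18.8% of all probes. It read 7.77, 7.76 and 7.56 in B6 and 7.22, 7.20 and 7.40 in NZW, and the strains did not overlap. The difference was 0.43 (SE 0.11, 1.34-fold, adjusted p = 0.034). Without NZW mouse 1 or 2 (0.40, adjusted p = 0.076, and 0.39, 0.081) or B6 mouse 1 or 2 (0.39, adjusted p = 0.12, and 0.40, 0.13) the call was lost. Cycs differed by -0.07 (adjusted p = 0.73), Diablo by -0.27 (adjusted p = 0.14) and Aifm1, which encodes a flavoprotein of mitochondria, by -0.29 (adjusted p = 0.14).

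None of 4 death receptor, 1 p53 and 4 inhibitor of apoptosis probes was called, and 1 of them, for an inhibitor, had an unadjusted p under 0.05. Fas read 6.78, 6.49 and 6.70 in B6 and 6.57, 6.52 and 6.47 in NZW, a difference of 0.14 (95% interval -0.12 to 0.40, adjusted p = 0.45). The 3 Fadd probes differed by 0.14 to 0.27. Trp53, the transcription factor p53, read 9.29, 9.43 and 9.23 against 9.17, 9.04 and 9.40, a difference of 0.12 (-0.17 to 0.40, adjusted p = 0.58). Strains overlapped for both genes. Both Cflar probes were undetected in all 6 mice, with deposited signals of 46.5 to 68.5. Of the Birc genes, Birc1cl had the largest difference, 0.45 (SE 0.18, adjusted p = 0.12), and Birc5, known as survivin, differed by -0.25 (adjusted p = 0.17) and -0.08 (adjusted p = 0.76).

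**Figure D3:**
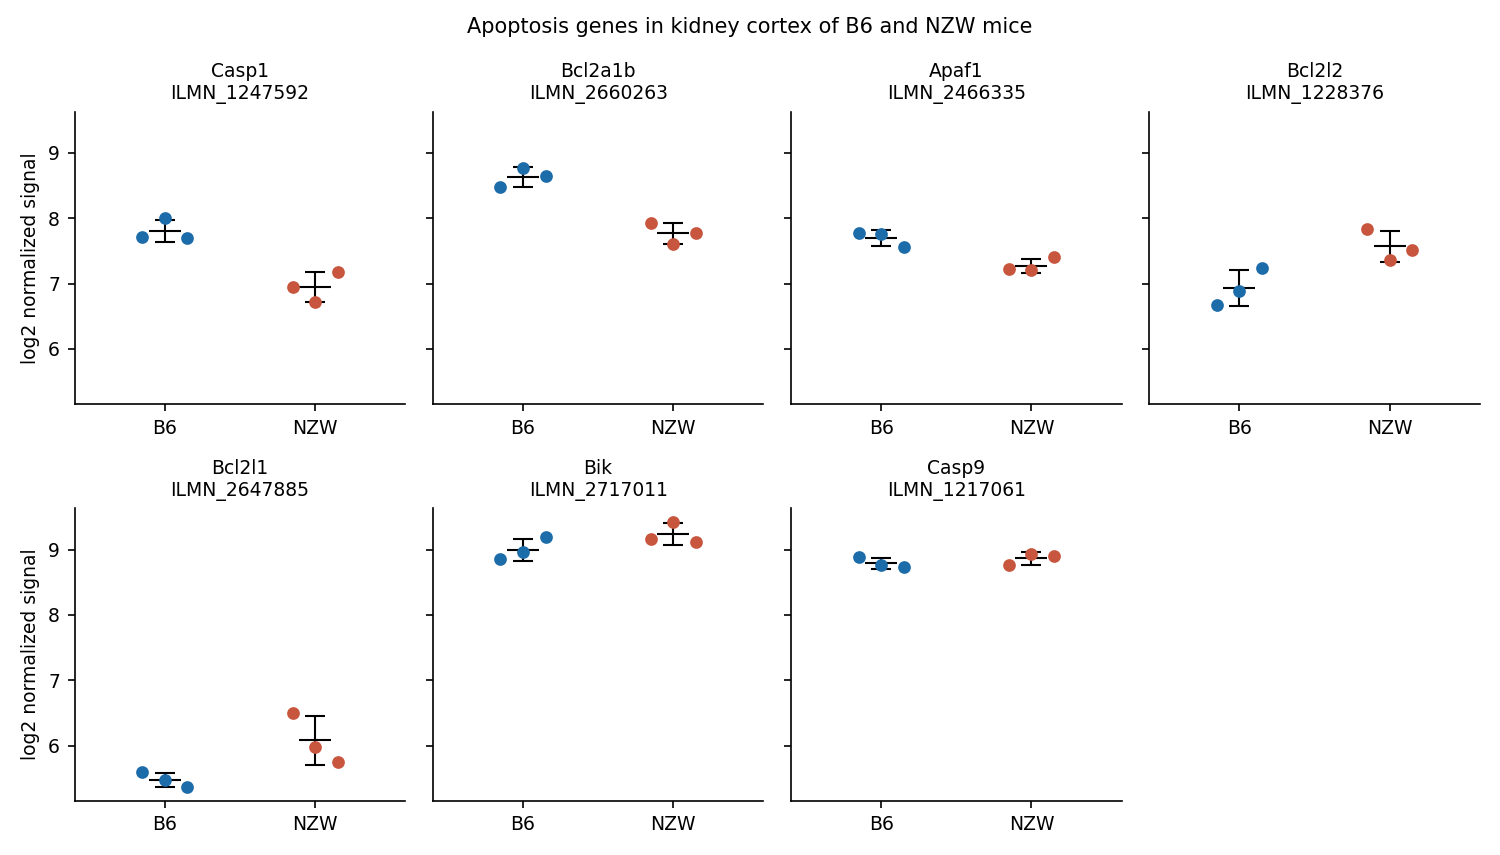
Log2 normalized intensity of 7 member probes in each B6 and NZW mouse, with points for mice (n = 3 per strain) and bars for the mean and SD. Casp1, Bcl2a1b and Apaf1 are higher in every B6 mouse than in any NZW mouse, whereas Bik and Casp9 overlap.

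**Figure D4:**
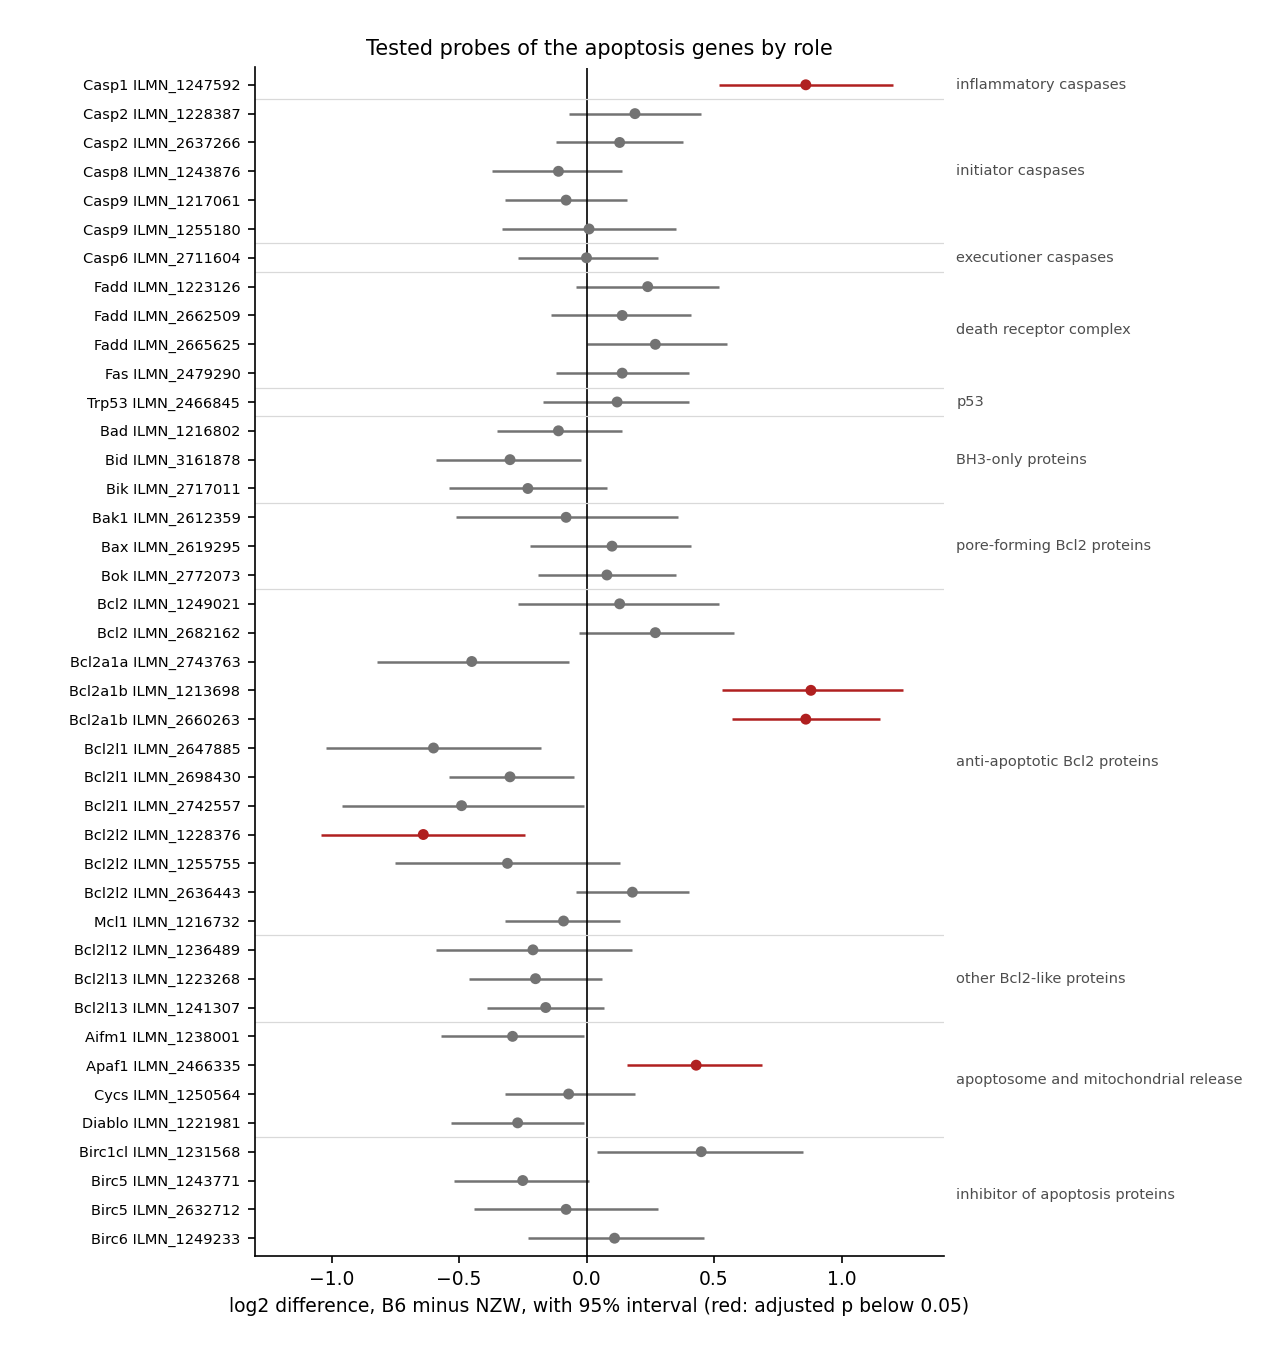
Log2 difference, B6 minus NZW, with its 95% interval for 41 of the 43 tested member probes in order of role, with red for an adjusted p below 0.05. The 5 red probes are those of Casp1, Apaf1 and Bcl2l2 and both of Bcl2a1b, and the differences run from -0.64 to 0.88.

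Other genes of the apoptosis pathways, outside the rule, were taken from a list. In B6 against NZW 8 of 71 probes (11.3%) were called, 2 higher and 6 lower in B6, which is below the 18.8% of all probes, with a median difference of -0.08. The largest was in Traf1, an adaptor of tumour necrosis factor receptors, at 6.92, 6.87 and 6.84 in B6 against 5.31, 5.30 and 5.69 in NZW. That was a difference of 1.44 (2.72-fold, adjusted p = 0.00011), and no mice overlapped. The other tested Traf1 probe differed by -0.12 (adjusted p = 0.45), so the probes disagreed. Lower in B6 were Dapk2 (-0.72, adjusted p = 0.0089), Pdcd6ip (-0.67, adjusted p = 0.0032), Cideb (-0.66, adjusted p = 0.003), Vdac2 (-0.49, adjusted p = 0.018) and Siva1 (-0.48, adjusted p = 0.013). A further Pdcd6ip probe differed by -0.05 (adjusted p = 0.81). In BALB/C against DBA1 limma called 0 of 28, with 5 at an unadjusted p under 0.05, where 5.75% of all rows were called. Against 129/svj, 1 of 28 (3.57%) was called in each of BALB/C and DBA1, where 4.82% and 4.48% of all rows were. In both that row was Vdac2, a channel of the outer mitochondrial membrane. It read 10.59, 10.59 and 10.36 in 129/svj and 11.13 to 11.23 in the other 6 mice, with differences of 0.66 (adjusted p = 0.013) from BALB/C and 0.65 (adjusted p = 0.014) from DBA1.

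For 34 member probes a key found once in each table linked the tables probe to probe, and 19 of them, from 16 genes, were tested in a joint fit with each strain compared inside its own table. The fit gave the resistant minus sensitive difference averaged over the tables, and the BALB/C difference from the mean of DBA1 and 129/svj minus the B6 difference from NZW. For the first, 2 of 19 were called, both higher in resistant strains, where 12% of all 6896 paired probes were called, 6.54% higher and 5.45% lower. For the second, 4 of 19 were called, where 10.3% of all were, 4.65% above zero and 5.66% below. The Casp9 row that was low in BALB/C could not enter, because its key is not unique.

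Bik passed on average, with a resistant minus sensitive difference of 1.03 (SE 0.09, adjusted p = 2.4e-06), but that mean joined 2.30 in the table of BALB/C with -0.24 in that of B6. With strain as a random block, which lets strains vary apart from their label, Bik did not pass, at an adjusted p of 0.089.

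The tables gave unlike differences for 4 members. For Bik the gap was 2.54 (SE 0.19, adjusted p = 3.1e-07). Casp1 differed by -0.45 in BALB/C and 0.71 in B6, a gap of -1.16 (SE 0.23, adjusted p = 0.0036). The brighter Bcl2a1b probe differed by -0.60 in BALB/C and 0.74 in B6, a gap of -1.34 (SE 0.40, adjusted p = 0.043). The called Bcl2l2 probe differed by 0.23 and -0.65, a gap of 0.88 (SE 0.24, adjusted p = 0.025). The other paired Bcl2a1b probe had a gap of -1.54 (adjusted p = 0.076) and the other Bcl2l2 probe one of 0.16 (adjusted p = 0.75). That Bcl2a1b probe was detected in no BALB/C mouse and in only 2 DBA1 and 1 129/svj mice. That Bcl2l2 probe was detected in no BALB/C, DBA1 or 129/svj mouse. Both gaps therefore rest partly on background values and do not check the called probes. The macrophage sums were higher in B6 than in NZW and lower in BALB/C than in DBA1. Those of 129/svj mice 1 and 2, at 665 and 457, lay within the BALB/C range. The sums of the tables rest on different marker genes, and Fcer1g counted only in that of B6 and NZW. The part of macrophages in these gaps was not tested. In the 15 fits that each left out a mouse, the gap passed in 15 for Casp1 and Bik. For the brighter Bcl2a1b probe it passed in 3, those without DBA1 mouse 1 or 129/svj mouse 2 or 3. In the others it was -1.42 to -1.27 with an adjusted p of 0.051 to 0.11. For the called Bcl2l2 probe it was lost without BALB/C mouse 2 or 3, NZW mouse 1 or 3, or B6 mouse 1 or 2. It was then 0.76 to 0.89 with an adjusted p of 0.052 to 0.085.

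**Figure D5:**
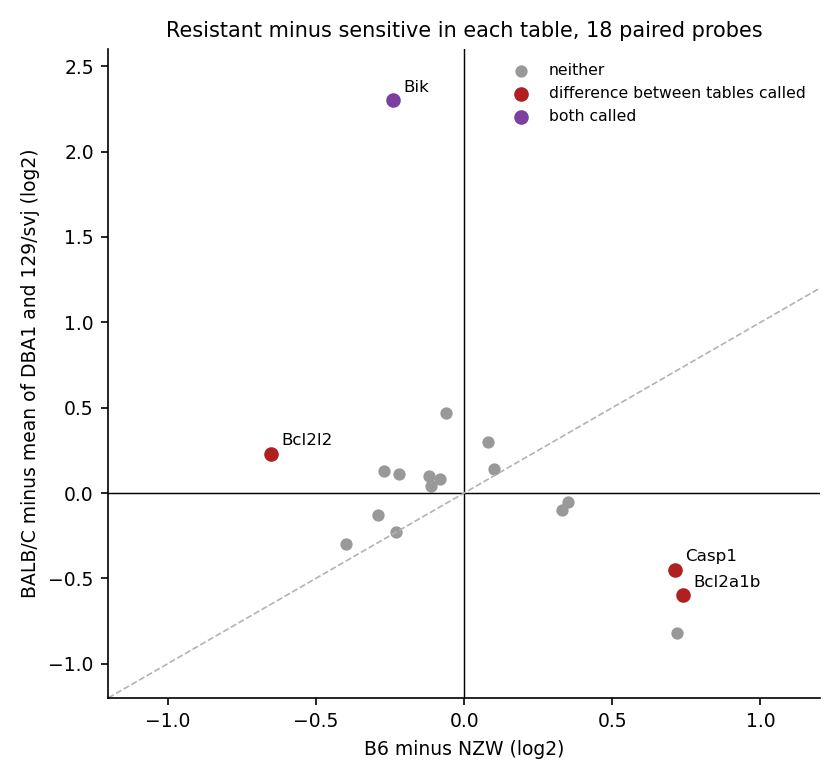
Log2 difference of B6 minus NZW (horizontal) against BALB/C minus the mean of DBA1 and 129/svj (vertical) for 18 of the 19 tested paired member probes, with a dashed line where they are equal. Bik lies far above that line at -0.24 and 2.30, and Casp1 and Bcl2a1b lie below the line.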

How the data were processed

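RNA from kidney cortex was extracted with Trizol and labelled with the Ambion MessageAmp kit, and the authors read the arrays in BeadStudio. The deposited intensities were mean bead signals per probe, not normalized, with a deposited detection p-value and bead number, and no genome build was named. They were background corrected with normexp on the detection p-values (nec, offset 16) and quantile normalized within each table. Arrays read as repeats were averaged. The log2 values computed from the deposited intensities were fitted with lmFit and eBayes (limma 3.58.1, R 4.3.3) over all probes detected (p at most 0.05) in 3 or more mice, with Benjamini-Hochberg adjustment over all of them and a threshold of 0.05. The offset shrinks folds of dim probes. Intervals are 95%. The joint fit used 19886 pairs normalized together. The fit was tested on simulated data.

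Strains came from sample titles. Values per mouse were given for called members and for Casp8, Bcl2, Bax, Bcl2l1, Mcl1, Trp53, Fas and Cflar (brightest probe). Some members are counted but their results are not reported here. Members and gene lists were chosen with earlier results of these data known. Nothing named separate litters or cultures, so p-values measure the spread between these 3 mice per strain, whose number limits the precision. Same-numbered DBA1 and 129/svj mice deviated together (r = 0.1918, 0.1046 and 0.3874), but the labels stated no pairing. Among pairs of unlike number, DBA1 mouse 1 with 129/svj mouse 2 (0.3412) and DBA1 mouse 2 with 129/svj mouse 1 (0.1138) were also positive. The rest were negative, so whether the numbers pair these strains is unclear. With the number as a replicate block 0 members were called between DBA1 and 129/svj, as without it. Alternatives covered background correction, offset, scaling, filters, the variance model, the methods' t-test, a replicate block, strain as a random block, repeat arrays, joint normalization and leaving out each mouse.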

Additional observations from a re-analysis of the deposited data

Results flagged for a closer look

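For 4 paired probes the difference of BALB/C from the mean of DBA1 and 129/svj was unlike that of B6 from NZW by limma's test of the gap between these differences. The gap was 2.54 on the log2 scale for Bik (adjusted p = 3.1e-07), -1.16 for Casp1 (adjusted p = 0.0036), -1.34 for Bcl2a1b (adjusted p = 0.043) and 0.88 for Bcl2l2 (adjusted p = 0.025). The other paired probes of Bcl2a1b (-1.54, adjusted p = 0.076) and Bcl2l2 (0.16, adjusted p = 0.75) were not called, and neither was detected in any BALB/C mouse.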

How the results depend on the processing

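No member named as called changed its direction under any alternative run. Bik kept its calls in BALB/C against DBA1 and 129/svj in each alternative that could be fitted for it, at 1.18 to 2.35. In B6 against NZW, where 6 of 43 member probes were called, joint normalization of the tables gave 2 of 19. That fit holds only the paired probes and estimates the spread over all 15 mice, so more than the normalization changed. In it Bcl2a1b (0.74, adjusted p = 0.16, and 0.72, 0.32) and Apaf1 (0.33, 0.4) lost their calls. The methods' t-test on the same 43 probes gave 10 at an unadjusted p and 2 after Benjamini-Hochberg, where Casp1 (adjusted p = 0.057), the dimmer Bcl2a1b probe (0.062), Apaf1 (0.074) and Bcl2l2 (0.16) lost their calls. In BALB/C against DBA1, where 2 of 18 rows were called, 1 was called with joint normalization, which leaves out the Casp9 row, and 1 when detection was required in every mouse, a filter that the Casp9 row cannot pass. The methods' t-test on the same 18 rows gave 8 at an unadjusted p. That filter left 1 of 3 in BALB/C against 129/svj and 1 of 2 in resistant against sensitive strains, where strain as a random block left 0. In DBA1 against 129/svj, where 0 were called, 1 was called with repeat arrays left out and 1 with joint normalization. Leaving out each mouse in turn gave 4 to 6 calls in B6 against NZW, 2 to 2 in BALB/C against DBA1, 2 to 3 in BALB/C against 129/svj, 0 to 0 in DBA1 against 129/svj, 2 to 2 in resistant against sensitive strains, and 2 to 5 for the gap between the tables, whose count with all mice was 4. Without mouse 3 of 129/svj, which stood apart, Bik in BALB/C differed from DBA1 and 129/svj by 2.18 and 2.05, both still called. Under the 75th percentile scaling the median of all probes in B6 against NZW was -0.13, against -0.04, and Apaf1 lost its call (adjusted p = 0.07).

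In deviations from strain means, same-numbered mice correlated at -0.07317 to 0.01113 between B6 and NZW, and at -0.2595 to 0.1332 between BALB/C and the other strains of its table, so mouse numbers did not pair these. With a replicate block, Apaf1 (0.43, adjusted p = 0.083) and Bcl2l2 (-0.64, adjusted p = 0.059) in B6 against NZW were no longer called, and the counts, which include a member called with the block alone, were 5 in B6 against NZW, 2 in BALB/C against DBA1, 2 in BALB/C against 129/svj and 0 in DBA1 against 129/svj. Causes of these shifts were not tested.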
